A study of Mus musculus with 6 samples.

Results

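10 genes that hold oocyte messages silent or control their translation were read out of a table of 47122 gene models measured in newborn mouse ovaries. They were chosen by symbol, all 10 were found, and they are Cpeb1, Ybx2, Ybx1, Pabpc1l, Pabpc1, Lsm14b, Ddx6, Eif4enif1, Cnot7 and Cnot6l. The samples were whole ovaries of mice at 1 day post partum (dpp), 3 of them wild type (WT) and 3 with Bcas2, a subunit of a spliceosome-associated complex, knocked out in oocytes (cKO, conditional knockout). The sources used here name neither the driver of the deletion nor the strain, nor whether a sample was 1 animal or a pool. P-values therefore measure only the spread between these samples, which may be technical. A description label of every sample speaks of granulosa cells, while the title and tissue give ovary.

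A growing oocyte makes and stores messages that it translates only later, when transcription has stopped. Stored messages carry short poly(A) tails and are packed with Y-box proteins and with the helicase DDX6, its partner LSM14B and the eIF4E-binding protein 4E-T (the product of Eif4enif1), which keep the cap from the initiation machinery. CPEB1 binds cytoplasmic polyadenylation elements in the 3′ untranslated region (UTR) and first represses and later, after phosphorylation, promotes tail extension. PABPC1 and the oocyte form PABPC1L (also called ePAB) bind the tail, and CNOT7 and CNOT6L are deadenylase subunits of the CCR4-NOT complex that shorten it. At 1 dpp oocytes are ending meiotic prophase and entering primordial follicles. The values are gene totals of RNA, with no tail length and no ribosome occupancy, and the sources used here do not say whether poly(A)-selected RNA was sequenced.

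The 3′ ends of the 10 messages were read from the GENCODE M21 transcripts (GRCm38), because the family both reads and may carry these elements. For each gene 1 protein-coding transcript was taken, the principal one in APPRIS and, among equals, the longest, and other transcripts may end elsewhere. The last 100 bases of each 3′ UTR were searched for TTTTAT or TTTTAAT, on the message strand, and the last 40 bases for the polyadenylation signal AATAAA or ATTAAA. Such an element was present in 3 of the 10 genes, against 17.9% of 19339 protein-coding genes with a 3′ UTR of at least 100 bases. The signal was found in 9 of the 10, against 73.6% of all. The exception was Ybx2, so its annotated end and the distance given below are less certain. In Cnot7 the element begins 20 bases and the AATAAA signal 11 bases before the end of the message, whereas in Ybx2 the element begins 62 bases and in Ybx1 88 bases before the end. The 3 sites follow 5′ to 3′, with the element, and in Cnot7 also the signal, in capitals. The Ybx1 stretch also holds AATAAA after the element, left unmarked because it lies outside the last 40 bases.
Cnot7: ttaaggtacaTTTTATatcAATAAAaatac
Ybx2: aagccaTTTTATgaactgtcatgtgccacc
Ybx1: cttcatTTTTAATttgtaataaagtttaca
The other 7 members, Cpeb1, Pabpc1l, Pabpc1, Lsm14b, Ddx6, Eif4enif1 and Cnot6l, held neither form in that window, which says only that these letters are not there. Among the 16 stored maternal messages listed for comparison, 15 had a window and 6 of these held the element.

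Libraries held 16800421 to 19565275 reads, recovered from the deposited values. Bcas2 stood at 54.5, 37.5 and 35.7 FPKM (fragments per kilobase of gene length, scaled to library size) in the 3 WT ovaries. It stood at 18.9, 21.9 and 18.3 FPKM in the 3 cKO ovaries. Its groups did not overlap, as was so for 7.88% of all tested genes. Oocyte markers were present, with 22 of 25 above the filter on low values, while Oosp1 and Stra8 were near 0. WT replicate 1 stood apart in its other cells: 10 endothelial genes summed to 191.9 FPKM there and to between 45.97 and 69.7 FPKM in the other 5 libraries. In cKO replicate 2, 8 erythroid genes summed to 13689 FPKM, against 405.1 to 1233 FPKM elsewhere. In WT replicate 2, 11 early response genes summed to 555.4 FPKM, against 59.3 to 200.1 FPKM elsewhere. Pericyte and stroma genes were also highest in WT replicate 1, where 10 surface epithelium genes were lowest. Of the cell marker lists, 1 separated the groups by summed FPKM, that of 8 mesonephros and oviduct epithelium genes. These summed to 35.1 to 59.5 FPKM in WT libraries and to 59.9 to 71.3 FPKM in cKO libraries. Of its 6 tested genes, 3 had separated groups and were higher in cKO. Cldn3, a tight junction gene named after its values were seen, was among them at 0.850 ± 0.252 and 3.39 ± 0.756 FPKM (limma adjusted p = 0.883). The part of that list in the results was not tested. The part of the libraries named above in the results below was not tested beyond leaving each out. In a bulk sample, fewer oocytes and less RNA per oocyte cannot be told apart.

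Transcripts of 9 of the 10 genes were well measured in both groups, and none of the 9 differed between WT and cKO ovaries at an adjusted p under 0.05. Pabpc1l was the exception in level and stayed under the filter of 1 FPKM in at least 3 libraries. In the fit over all 14589 genes that passed the filter, 0.0% were called, the same share as among the members (limma with Benjamini-Hochberg adjustment). The smallest limma adjusted p over all tested genes was 0.484. Bcas2, the deleted gene, was thus not called either, so the lack of a call does not show that a member is unchanged. Among the 9 tested members 0 also had an unadjusted limma p under 0.05, where 3.04% of all tested genes had (1.14% lower and 1.89% higher in cKO). Limma-voom on the recovered reads also gave 0 members, adjusted or unadjusted. Their limma adjusted p-values lay between 0.955 and 0.997. The median log2 fold change of the 9 was −0.03, beside −0.0058 over all tested genes, with 3 above 0 and 6 below. All fold changes are cKO against WT on the log2(FPKM + 1) scale.

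**Figure D1:**
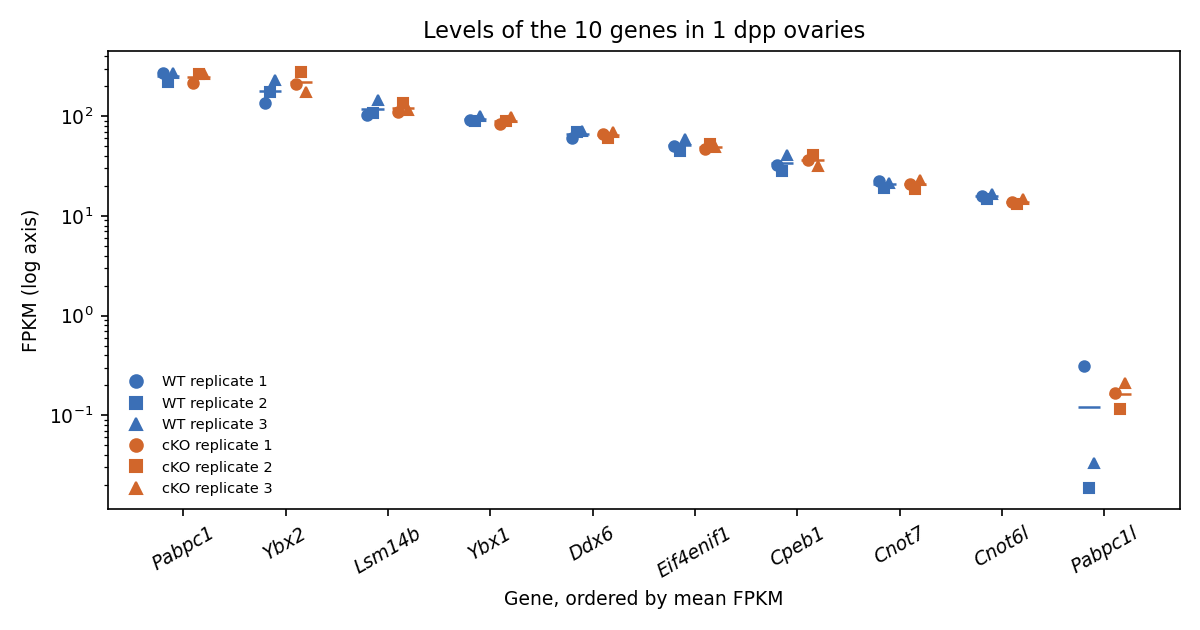
FPKM of the 10 genes (log axis) in each of the 6 ovary libraries, with WT in blue, cKO in orange, replicates by symbol and a short line at each group mean. The 2 groups overlap for every gene other than Cnot6l, and Pabpc1l lies at 0.315 FPKM or less while the other 9 lie at 13.2 FPKM or more.

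FPKM is scaled by 1 deposited length per gene, so levels can be set side by side only as far as that length fits the transcripts present. This was not tested. The length was 3955 bases for Ybx1 and 2103 for Ybx2. In WT replicate 1 Ybx1 had more reads than Ybx2 (6343 against 5015) though its FPKM was lower. Mean levels over the 6 libraries ran from Pabpc1 (251.0 FPKM) through Ybx2 (201.5), Lsm14b (119.3), Ybx1 (92.3), Ddx6 (66.03), Eif4enif1 (50.4), Cpeb1 (35.05), Cnot7 (20.8) and Cnot6l (14.9) to Pabpc1l (0.143). Neighbours in that order had separate ranges except for Pabpc1 with Ybx2 and Ybx2 with Lsm14b. Pabpc1 was above Ybx2 in 5 of 6 libraries, and Ybx2 above Lsm14b in 6 of 6. Both deadenylase subunits lay below the other tested members. Pabpc1 ranked at the 99.7th percentile of all gene models and Cnot6l at the 89.4th.

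Among the message-packaging genes, the germ cell Y-box gene Ybx2 (MSY2) had the largest difference of the 9. Ybx2 lies on chromosome 11 from 69826711 to 69832429 on the plus strand (GRCm39, as are the positions that follow), with no overlapping gene in the table. Levels were 136.8, 174.5 and 231.5 FPKM across WT libraries against 209.8, 280.2 and 176.4 FPKM across cKO libraries. The lowest value was in WT replicate 1 and the highest in cKO replicate 2, the same libraries that stood apart in endothelial and erythroid genes, and the groups overlapped. Group means were 181.0 ± 47.7 and 222.1 ± 52.98 FPKM (SD over 3 libraries each). The log2 fold change was 0.30 (SE 0.24, 95% interval −0.26 to 0.86, limma adjusted p = 0.955), which leaves room for a change from 0.834 to 1.82 times. Leaving out WT replicate 1 gave 0.12, as did leaving out cKO replicate 2.

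Ybx1, the Y-box gene used in most cell types, varied far less. It lies on chromosome 4 from 119134524 to 119153462 on the minus strand. Its level was 92.03, 90.3 and 99.97 FPKM across WT libraries against 84.2, 89.7 and 97.4 FPKM across cKO libraries, with overlapping groups and only 1.19 times between the highest and the lowest library. The log2 fold change was −0.06 (95% interval −0.29 to 0.17, limma adjusted p = 0.963). Processed pseudogenes of Ybx1 and Pabpc1 exist in the mouse genome, so both levels are uncertain as far as reads matching such copies were split, a step the sources used here do not describe.

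The repressor particle was represented by Lsm14b, Ddx6 and Eif4enif1. Lsm14b, whose protein recruits messages into the repressed store, lies on chromosome 2 from 179666694 to 179677259 on the plus strand. It was at 101.7, 107.2 and 144.9 FPKM across WT libraries against 110.03, 135.7 and 116.4 FPKM across cKO libraries. WT replicate 3 was highest, followed by cKO replicate 2, and the groups overlapped. The log2 fold change was 0.05 (95% interval −0.33 to 0.43, limma adjusted p = 0.983). Its sign turned after rescaling to TPM and without WT replicate 1, WT replicate 2 or cKO replicate 2, so no direction can be given.

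Ddx6, the helicase of the particle, lies on chromosome 9 from 44514113 to 44552028 on the plus strand. Its level was 60.001, 69.3 and 71.2 FPKM across WT libraries against 65.98, 60.5 and 69.3 FPKM across cKO libraries, a spread of 1.19 times over the 6 libraries. Its log2 fold change was −0.03 (95% interval −0.28 to 0.22, limma adjusted p = 0.983). The sign turned with limma-voom and without WT replicate 3 or cKO replicate 2. Eif4enif1, which encodes 4E-T, lies on chromosome 11 from 3152344 to 3194588 on the plus strand and was at 50.1, 44.7 and 59.1 FPKM across WT libraries against 46.6, 52.4 and 49.3 FPKM across cKO libraries. The cKO values lay within the WT range, with a log2 fold change of −0.05 (95% interval −0.33 to 0.24, limma adjusted p = 0.978) whose sign turned without WT replicate 3. Sfi1, a centrosome protein gene on the opposite strand, overlaps Eif4enif1 and was at 9.78 to 12.8 FPKM, and without a stated strand setting reads of the pair may be shared.

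Cpeb1, the sequence-specific regulator, lies on chromosome 7 from 80996774 to 81107749 on the minus strand. Its level was 32.6, 28.1 and 41.2 FPKM across WT libraries against 36.2, 40.5 and 31.6 FPKM across cKO libraries. WT libraries held both the lowest and the highest value. The log2 fold change was 0.09 (95% interval −0.29 to 0.47, limma adjusted p = 0.963), and its sign turned without WT replicate 2.

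The 2 poly(A)-binding protein genes were at opposite ends of the scale. Pabpc1, the somatic and general form, lies on chromosome 15 from 36595902 to 36609825 on the minus strand and was at 273.0, 220.02 and 270.2 FPKM across WT libraries against 213.9, 262.7 and 266.1 FPKM across cKO libraries. Its lowest values were in WT replicate 2 and cKO replicate 1, and the groups overlapped (log2 fold change −0.04, 95% interval −0.37 to 0.30, limma adjusted p = 0.983). The sign turned on leaving out WT replicate 1, WT replicate 3 or cKO replicate 1. Pabpc1l, the oocyte form, lies on chromosome 2 from 163866685 to 163892458 on the plus strand and was at 0.315, 0.0186 and 0.0331 FPKM across WT libraries against 0.167, 0.115 and 0.209 FPKM across cKO libraries. These values rest on 17, 1 and 2 reads in WT and on 9, 6 and 12 reads in cKO. WT replicates 2 and 3 were at or under the floor of 3 reads, and WT replicate 1, the library rich in endothelial genes, held the highest count. Without the filter the log2 fold change of Pabpc1l was 0.06 (95% interval −0.19 to 0.32, limma adjusted p = 0.927), a scale on which so low a level can hardly move.

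The windows before the annotated starts of Pabpc1l, Lsm14b and Cpeb1 are shown because these genes, all used in oocytes, differ so widely in level. They are the 250 bases upstream of the start in RefSeq on GRCm38.p6, which held an entry for 7 of the 10 members (not Pabpc1, Ddx6 or Cnot7), and each contains 0 bases of a GENCODE M21 exon. The E-boxes CACCTG and CACGTG, the homeobox motif TAATTG and CCAAT were searched on both strands, and matches are in capitals.
Pabpc1l, chr2:164024974-164025223, plus strand: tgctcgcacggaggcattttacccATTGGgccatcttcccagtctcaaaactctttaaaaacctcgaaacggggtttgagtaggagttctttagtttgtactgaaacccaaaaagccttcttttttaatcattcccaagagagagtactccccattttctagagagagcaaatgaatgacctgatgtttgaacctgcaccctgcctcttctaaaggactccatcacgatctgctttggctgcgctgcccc
Lsm14b, chr2:180024737-180024986, plus strand: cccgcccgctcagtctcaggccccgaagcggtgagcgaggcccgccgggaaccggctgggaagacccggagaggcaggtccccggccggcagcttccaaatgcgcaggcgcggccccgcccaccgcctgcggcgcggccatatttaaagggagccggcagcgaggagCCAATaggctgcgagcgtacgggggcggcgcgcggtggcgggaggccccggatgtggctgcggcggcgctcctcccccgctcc
Cpeb1, chr7:81454759-81455008, minus strand: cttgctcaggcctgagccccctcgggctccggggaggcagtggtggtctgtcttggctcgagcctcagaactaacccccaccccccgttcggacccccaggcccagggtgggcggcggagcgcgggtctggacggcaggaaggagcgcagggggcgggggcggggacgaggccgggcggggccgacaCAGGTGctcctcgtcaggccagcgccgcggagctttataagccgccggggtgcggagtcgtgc
The Pabpc1l window held 6 CG dinucleotides, equal to the median of 6 over 32851 windows, the Lsm14b window 34 and the Cpeb1 window 25. CCAAT occurred in the Pabpc1l and Lsm14b windows, as in 33.8% of all windows, and CACCTG in the Cpeb1 window, as in 17.2% of all. CACGTG (6.02% of all windows) and TAATTG (7.17%) were in none of the 3. Methylation and factor binding at these windows were not measured.

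The deadenylase subunits gave the only separated groups. Cnot6l, a CCR4-type nuclease subunit, lies on chromosome 5 from 96218192 to 96312044 on the minus strand, and no other gene overlaps it. Its level was 15.96, 14.8 and 16.8 FPKM across WT libraries against 13.8, 13.2 and 14.6 FPKM across cKO libraries. All 3 cKO libraries lay below all 3 WT libraries, with 14.8 FPKM in the lowest WT and 14.6 FPKM in the highest cKO library. Means were 15.9 ± 0.961 and 13.9 ± 0.737 FPKM (SD over 3 libraries each). The log2 fold change was −0.18 (SE 0.09, 95% interval −0.40 to 0.04), with an unadjusted limma p of 0.0967 and an adjusted p of 0.955. Of the 9 tested members 1 had groups that did not overlap, where 7.88% of all tested genes did, 3.67% with cKO lower and 4.2% with cKO higher, so this is near what the whole table shows. Leaving out each library kept the value between −0.22 and −0.14. Of 18 other deadenylation genes, none separated the groups by itself, and their mean log2(FPKM + 1) overlapped between the groups. Their summed FPKM did separate the groups, in the same direction as Cnot6l. It was 394.9 to 403.4 FPKM in WT libraries and 358.4 to 382.6 FPKM in cKO libraries. The summed mesonephros and oviduct epithelium genes also separated the groups, in the opposite direction, and their part in this difference was not tested.

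Cnot7, a CAF1-type nuclease subunit and one of the 3 members with a polyadenylation element near its end, lies on chromosome 8 from 40945579 to 40968888 on the minus strand. Its level was 22.2, 19.05 and 21.2 FPKM across WT libraries against 20.99, 18.5 and 22.9 FPKM across cKO libraries, and the groups overlapped. Means were 20.8 ± 1.61 and 20.8 ± 2.19 FPKM (SD over 3 libraries each). The log2 fold change was −0.0037 (95% interval −0.27 to 0.26, limma adjusted p = 0.997), so a change from 0.830 to 1.199 times lies within the interval. The sign turned with limma-voom and on leaving out WT replicate 1, WT replicate 3 or cKO replicate 2. Vps37a and Zdhhc2, on the opposite strand, overlap Cnot7 and reached 8.98 and 5.70 FPKM.

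**Figure D2:**
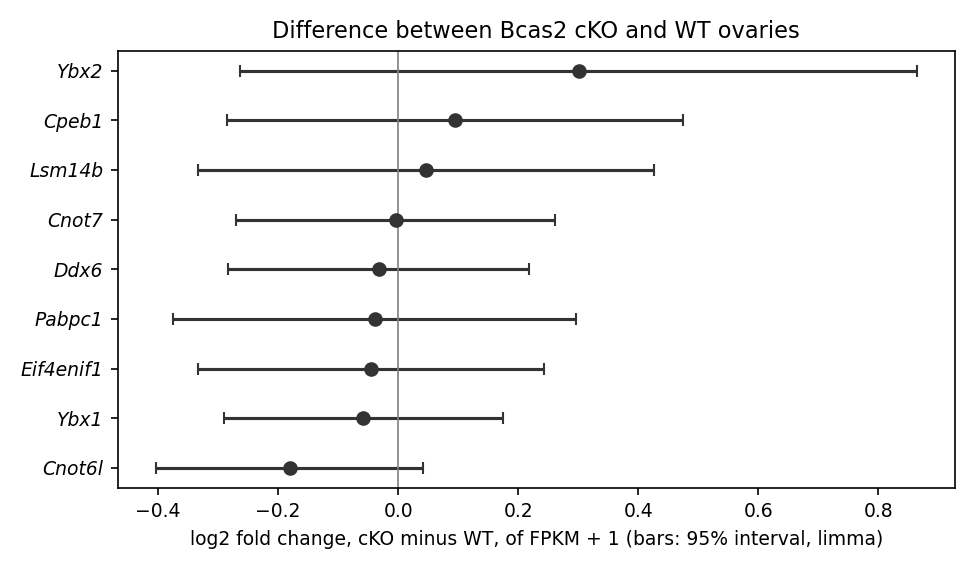
Log2 fold change of the 9 tested genes, cKO minus WT on the log2(FPKM + 1) scale, with 95% intervals from limma as bars. Every interval includes 0; Ybx2 (0.30) has the widest and Cnot6l (−0.18) lies farthest below 0.

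The WT libraries differed from each other in oocyte marker level by more than the groups did. The mean log2(FPKM + 1) of 22 oocyte markers, none of them a member, was 5.39, 5.71 and 6.15 in WT and 5.75, 5.82 and 5.74 in cKO, so the WT libraries lay on both sides of the cKO libraries. Ybx2, Lsm14b and Cpeb1 spread over the libraries about as widely as this mean: their SD over the 6 libraries was 0.36, 0.20 and 0.21 on the log2 scale, against 0.24 for the mean. The SD of the other 6 tested members ran from 0.09 (Ybx1) to 0.16 (Pabpc1). All 3 of Ybx2, Lsm14b and Cpeb1 were above their own mean in WT replicate 3 and cKO replicate 2 and below it in WT replicates 1 and 2 and cKO replicate 3. Eif4enif1 shared these signs with a smaller spread, so the pattern is not particular to the 3. It deviated by −0.002, −0.16 and 0.23 in WT replicates 1 to 3, and by 0.06 and −0.02 in cKO replicates 2 and 3.

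Set against the oocyte markers of the same library, Lsm14b and Ybx2 varied less and Cpeb1 about as before. Subtracting the marker mean lowered the SD of Lsm14b from 0.20 to 0.12 and that of Ybx2 from 0.36 to 0.24. It took Cpeb1 from 0.21 to 0.20, and raised Ybx1 from 0.09 to 0.22 and Cnot7 from 0.12 to 0.29. A gene that varies little takes on the spread of the subtracted mean, so such a rise was largely set in advance. In root mean square distance from the marker mean, Lsm14b was closest (0.109), and Cpeb1 (0.184) was no closer than Ddx6 (0.178) or Eif4enif1 (0.175). Ybx2 (0.220) was farther from it than these and than Ybx1 (0.202), but closer than Cnot6l (0.235), Pabpc1 (0.259) and Cnot7 (0.265). Ybx2 lay 1.72, 1.75 and 1.72 above the marker mean in the WT libraries and 1.96, 2.32 and 1.73 above it in the cKO libraries. The WT values were thus nearly constant while the cKO values reached from the WT level upwards. With the marker mean as a covariate the log2 fold change of Ybx2 was 0.27 and that of Cnot6l −0.18, and 0 members were called.

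**Figure D3:**
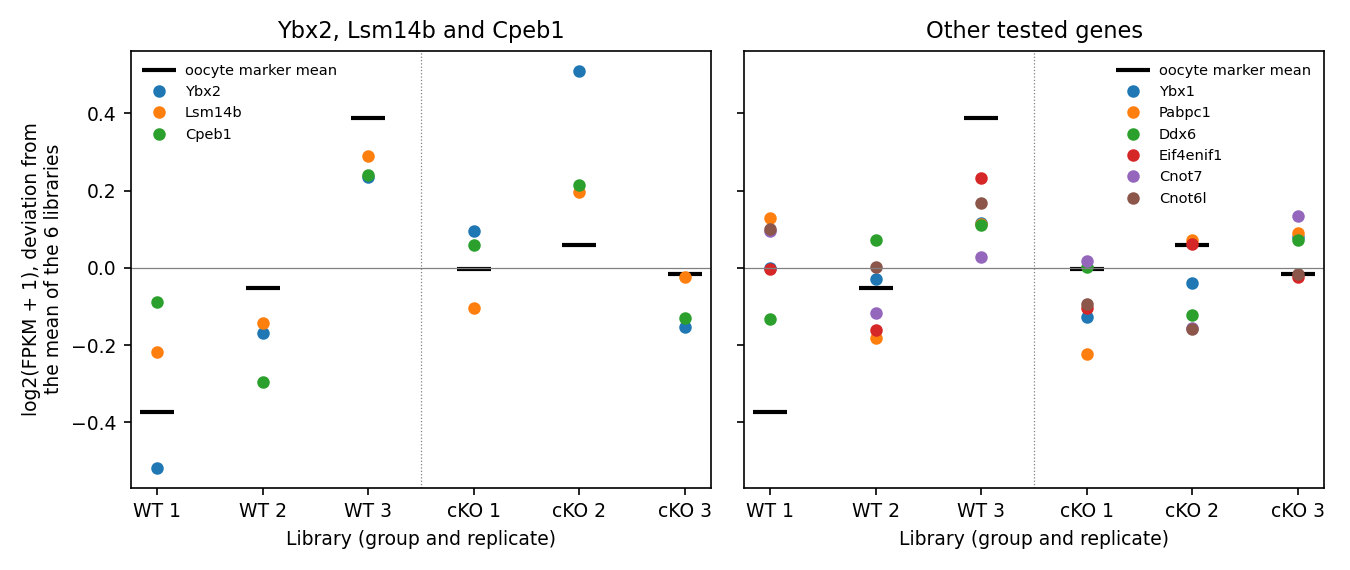
Deviation of log2(FPKM + 1) from the mean of the 6 libraries, by library, for Ybx2, Lsm14b and Cpeb1 (left) and the other 6 tested genes (right); black dashes are the mean of 22 oocyte markers. The genes on the left spread widely with WT replicate 3 and cKO replicate 2 on top, and those on the right stay between −0.22 and 0.23.

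Over the 6 libraries, the protein-coding genes with the most similar profiles were found by the root mean square distance of centred log2 values, among 8843 genes with a mean of at least 5 FPKM. For Cpeb1 they were Esrp1, an epithelial splicing regulator, at 0.0304, Dnajc2, a ribosome-associated chaperone, at 0.0355, and Tcl1, a coactivator of AKT, at 0.0357. For Ybx2 they were Cenpw, a centromere protein gene, at 0.0440, Syce2, a central element gene of the synaptonemal complex, at 0.0445, and Mrpl52, a mitochondrial ribosome gene, at 0.0614. For Lsm14b they were Nadk2, a mitochondrial NAD kinase, at 0.0190, Sod2, the mitochondrial superoxide dismutase, at 0.0303, and Tubb4b, a beta-tubulin, at 0.0308. With 6 libraries this is a description of shared ups and downs. Among the members themselves Ybx1 and Cnot6l were closest (0.0807), while Lsm14b was 0.107 from Eif4enif1 and 0.116 from Cpeb1.

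Of the members, Ybx2, Lsm14b, Cpeb1, Pabpc1 and Cnot7 each made up the largest share of the summed FPKM of their gene family. Ybx1 (23.3% in WT and 19.8% in cKO), Pabpc1l (0.04% and 0.06%) and Cnot6l did not. These shares depend on the deposited gene lengths. Ybx2 was 43.6% ± 3.27 of the summed FPKM of Ybx1, Ybx2 and Ybx3 in WT and 47.4% ± 5.001 in cKO (SD over 3 libraries each), with Ybx3, the remaining Y-box gene, at 33.02% ± 1.27 and 32.8% ± 2.59. Lsm14b was 74.9% ± 3.59 of the LSM14 pair in WT and 75.5% ± 1.88 in cKO. Cpeb1 was 70.1% ± 4.18 of the 4 CPEB genes in WT and 72.5% ± 3.15 in cKO. Pabpc1 was 91.3% ± 0.506 and 91.7% ± 0.327 of Pabpc1, Pabpc1l, Pabpc4 and Pabpc6. Cnot7 was the larger of the CAF1 pair with 59.03% ± 2.99 in WT and 59.6% ± 2.07 in cKO, and Cnot6l the smaller of the CCR4 pair with 34.4% ± 3.94 and 32.4% ± 1.58. The shares of the CAF1 pair differed between the groups by less than the SD of either group. Those of the CCR4 pair differed by less than the SD in WT but by more than that in cKO.

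Ratios of related genes in the same library do not depend on library size, and 7 were compared between the groups. Their levels rest on the deposited gene lengths, which are the same in every library. Ybx2 to Ybx1 was 1.49, 1.93 and 2.32 in WT and 2.49, 3.12 and 1.81 in cKO. Its mean difference was 0.36 on the log2 scale, cKO minus WT, with overlapping groups (exact two-sided permutation p = 0.3, adjusted p = 1.0 over the 7 ratios). Without cKO replicate 2 the difference was 0.18, without WT replicate 1 it was 0.19, and without cKO replicate 3 it was 0.57. Lsm14b to Lsm14a differed by 0.04 (exact p = 1.0), Cnot6l to Cnot6 by −0.12 (exact p = 0.5), Cnot7 to Cnot8 by 0.03 (exact p = 0.9) and Cpeb1 to Cpeb4 by −0.04 (exact p = 0.9). All 7 ratios had overlapping groups, and 3 samples against 3 cannot give a p below 0.1. Eif4e1b, the oocyte eIF4E form that 4E-T can bind, was at 0.178 to 0.702 FPKM (7 to 31 reads) and came to 0.0103 to 0.0302 of Eif4e (exact p = 0.6). Pabpc1l came to at most 0.00115 of Pabpc1 (exact p = 0.4), a ratio resting on 1 to 17 reads.

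**Figure D4:**
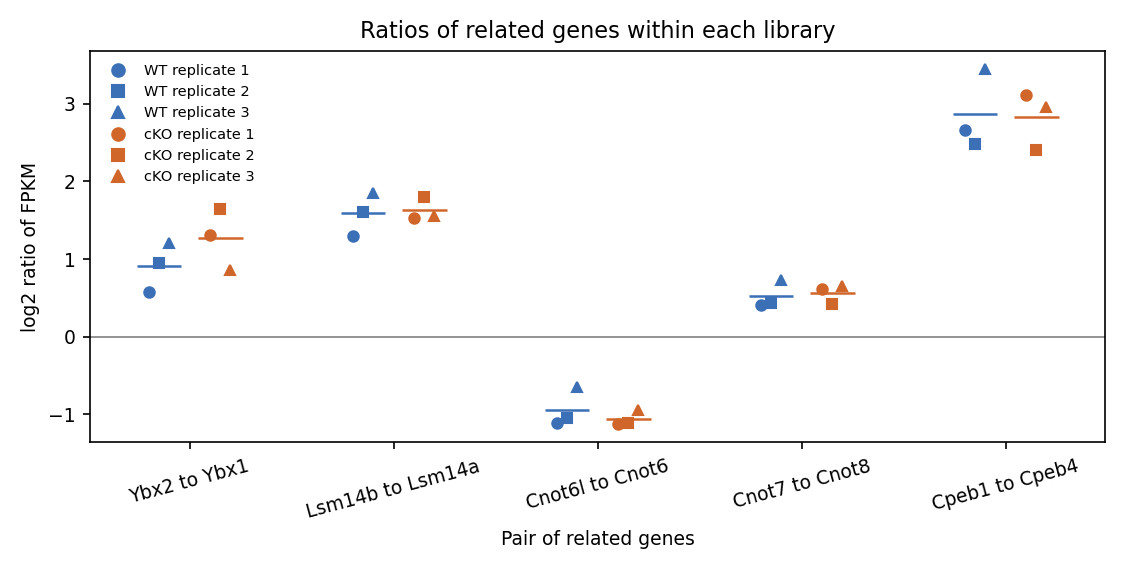
Log2 ratio of FPKM within each library for 5 pairs of related genes, with WT in blue, cKO in orange, replicates by symbol and lines at group means. Ybx2 to Ybx1 reaches from 0.57 to 1.64, Cnot6l to Cnot6 is the only pair below 0, and the groups overlap in every pair.

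The wider machinery was covered by 6 lists with 127 genes, of which 116 passed the filter. None of the 116 was called over all genes, 2 had an unadjusted limma p under 0.05 (1.72%, against 3.04% of all tested genes), both lower in cKO, and 10 had groups that did not overlap (8.62%, against 7.88% of all), 8 lower and 2 higher in cKO. Their median log2 fold change was −0.03. By list, 22 genes of tail extension and binding had a median of −0.02, 18 of deadenylation −0.04, 17 of the repressor particle and decapping 0.02, 17 of cap-binding initiation 5.2e-06, 28 other translational regulators −0.08 and 14 stored maternal messages −0.05.

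The genes with an unadjusted p under 0.05 were Zfp36l2 and Cnot1. Zfp36l2, an AU-rich element binding protein that promotes message decay and is needed in oocytes, was at 92.7, 77.8 and 70.6 FPKM across WT libraries against 55.0, 57.5 and 64.6 FPKM across cKO libraries. Every cKO library lay below every WT library (log2 fold change −0.43, SE 0.13, limma adjusted p = 0.955). Cnot1, the scaffold that holds CNOT7 and CNOT6L in the CCR4-NOT complex, was at 85.1, 74.8 and 82.0 FPKM across WT libraries against 62.8, 56.2 and 76.4 FPKM across cKO libraries. Its groups overlapped through cKO replicate 3 and WT replicate 2, with a log2 fold change of −0.31 (SE 0.13, unadjusted p = 0.0492, limma adjusted p = 0.955). Cnot1 was named because so few genes passed, after its values were seen. None of the 18 deadenylation genes had groups that did not overlap, and 13 of the 18 were below 0. Their summed FPKM, of which Cnot1 is a part, did separate the groups. It was 394.9 to 403.4 in WT libraries and 358.4 to 382.6 in cKO libraries, while their mean log2(FPKM + 1) overlapped.

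Others with separated groups had small differences. Xrn1, the exonuclease of decapped messages, was at 9.59 ± 0.687 and 8.17 ± 0.914 FPKM across WT libraries against cKO, and Celf1, a GU-rich element binding protein, at 27.8 ± 0.393 and 25.2 ± 0.486 FPKM (SD over 3 libraries each). Caprin1, a ribonucleoprotein granule protein, was at 63.3 ± 4.70 and 57.3 ± 2.48 FPKM, and Ddx3x, a translation helicase, at 143.8 ± 4.55 and 126.6 ± 17.6 FPKM. Of the polyadenylation factors, Cpsf4 was at 20.9 ± 0.349 and 23.9 ± 3.16 FPKM and Cpsf2 at 9.97 ± 0.428 and 9.02 ± 0.266 FPKM. Each of these 6 had a limma adjusted p of 0.955.

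**Figure D5:**
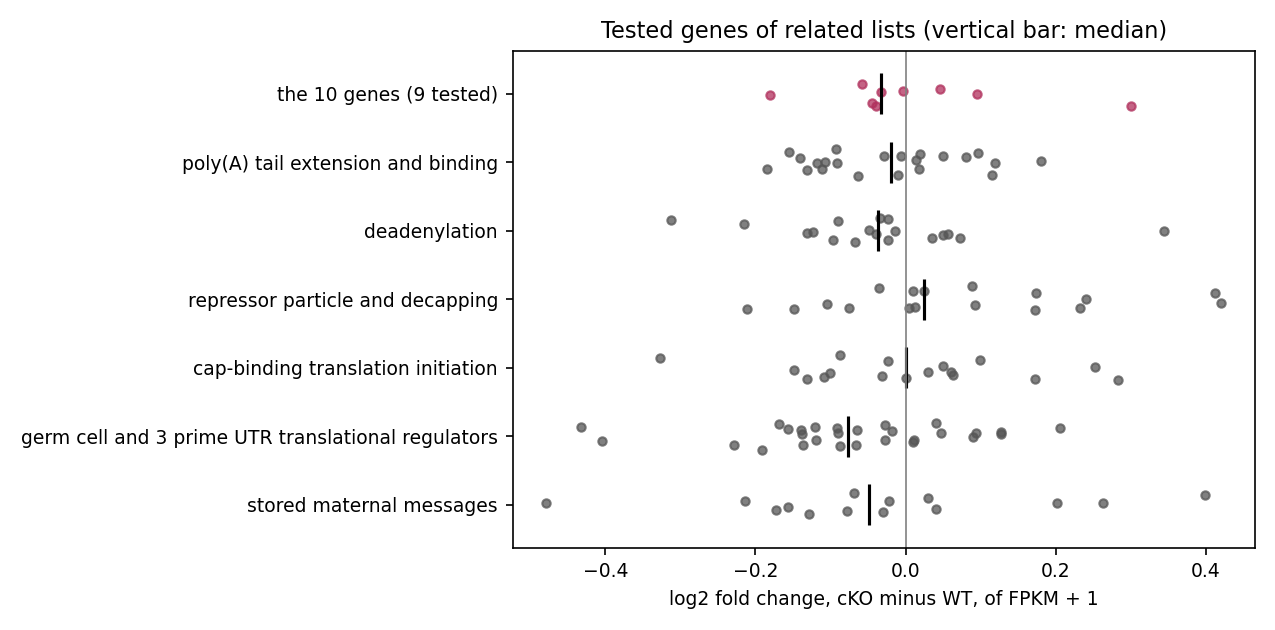
Log2 fold change, cKO minus WT on the log2(FPKM + 1) scale, of every tested gene in 7 lists; a point is a gene, the vertical bar the list's median, and vertical scatter only separates points. The medians lie between −0.08 and 0.02, and the 9 tested members (top row) reach from −0.18 to 0.30.

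Messages with a polyadenylation element near the 3′ end were also set beside the rest. The split covered only tested protein-coding genes with a 3′ UTR of at least 100 bases. Of these, 2259 held TTTTAT or TTTTAAT in the last 100 bases and had a median log2 fold change of −0.02. The 9248 that held neither had a median of −0.01. The 6 tested stored maternal messages with the element had a median of −0.02 and the 7 without it −0.03. Plat, tissue plasminogen activator and a known stored message of the mouse oocyte, was at 33.7 ± 5.35 FPKM across WT libraries against 34.1 ± 1.12 FPKM across cKO libraries (SD over 3 libraries each), and holds TTTTAAT beginning 89 bases before its end. Mos, the kinase of meiotic arrest, was at 2.68 ± 0.774 and 2.46 ± 0.276 FPKM, and Ccnb1, cyclin B1, at 21.99 ± 3.78 and 21.7 ± 5.32 FPKM. Mos and Ccnb1 held neither TTTTAT nor TTTTAAT in the last 100 bases. Other forms, other positions and other transcripts were not searched, so the split may miss messages that carry an element. Groups overlapped for these 3 messages. Plat, Mos and Ccnb1 were picked as the best known of the list after their values were seen.

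The low level of Pabpc1l was not shared by most genes of the oocyte marker and stored message lists, but several maternal regulators were low too. Of 25 oocyte markers 22, and of 16 stored maternal messages 14, passed the filter. In whole ovary this does not tell which cells hold the messages. Nlrp5, a gene of the maternal complex under the oocyte membrane, was at 165.0 to 456.6 FPKM over the 6 libraries, and Dppa3, a maternal chromatin factor, at 338.1 to 565.4 FPKM. Others on these lists were near 0, with 0 to 1 reads of Oosp1 and 0 to 2 reads of Obox5 in each library. The oocyte marker Bmp15 was at 0.286 to 0.795 FPKM. Among the regulators, Zar1, a maternal RNA-binding protein gene, was at 0.486 to 1.76 FPKM, and Btg4, the adaptor that brings CCR4-NOT to maternal messages at maturation, at 0.615 to 1.95 FPKM. Pabpn1l and Zar1l had 0 to 2 reads in each library, and Patl2 was at 0.917 to 2.04 FPKM. The genes set beside Pabpc1l here were named after their values were seen.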

How the data were processed

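RNA sequencing of total RNA from 6 ovary samples was deposited by the authors as FPKM with gene lengths. Per the submitters' processing notes, tools included HISAT2 2.0.5, with mm10 and GRCm39 listed as builds; counting tool, annotation release and strand setting: not given in the sources used here. The deposited chromosome accessions are those of GRCm39. Groups came from the sample titles and columns were matched by description labels. FPKM times length, divided by the value of 1 read in each library, gave whole reads within 0.05 for 100.0% of the values checked. Genes with at least 1 FPKM in at least 3 libraries were kept (14589), and log2(FPKM + 1) was compared with limma 3.58.1 in R 4.3.3 (trend, two-sided, Benjamini-Hochberg, threshold 0.05), tested on simulated data. Ratios were compared by exact permutation. The members and lists were chosen with earlier results of these data known. Named genes were the members, their paralogs, Bcas2, the 3 nearest profiles of Cpeb1, Ybx2 and Lsm14b (Pabpc1l was too low), and up to 4 genes per pathway list with the smallest p and separated groups; others are marked. Alternatives were pseudocounts of 0.1 and 0.5 (for ratios 1), no filter, a filter at 5 FPKM, TPM rescaling, median-of-ratios scaling, a replicate block, limma-voom, an oocyte marker covariate and leaving out each library. Replicate pairs of a group differed beyond sampling noise (chi-square per degree of freedom of 12.04 to 59.6).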

Additional observations from a re-analysis of the deposited data

How the results depend on the processing

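Of 135 member fold changes under the alternatives, 0 were called, the smallest limma adjusted p was 0.599, and 16 turned sign, 13 of them on leaving out a library. Calls over all genes stayed at 0 except without cKO replicate 2, where there was 1, the pseudogene Pcna-ps2 (range on leaving out a library 0 to 1). The count of genes at an unadjusted p under 0.05 went from 443 to 253, 293 and 702 on leaving out cKO replicates 2, 1 and 3, to 1056 without WT replicate 3, and to 905 with the oocyte marker covariate, 1147 without a filter and 254 with the filter at 5 FPKM. For the 116 pathway genes it lay between 1 and 8 (2 as reported; 8 without WT replicate 3, 5 without cKO replicate 3). Lsm14b was at −0.035 after rescaling to TPM; Ddx6 was at 0.0012 and Cnot7 at 0.030 with limma-voom. The cause was not tested.

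On leaving out each library, log2 fold changes ran from −0.029 to 0.24 for Cpeb1, 0.12 to 0.49 for Ybx2, −0.11 to −0.0084 for Ybx1, −0.14 to 0.062 for Pabpc1, −0.051 to 0.20 for Lsm14b, −0.11 to 0.020 for Ddx6, −0.14 to 0.059 for Eif4enif1, −0.072 to 0.074 for Cnot7 and −0.22 to −0.14 for Cnot6l. Ratio differences ran from 0.18 to 0.57 for Ybx2 to Ybx1, 0.78 to 2.67 for Pabpc1l to Pabpc1, −0.82 to −0.039 for Eif4e1b to Eif4e, −0.10 to 0.17 for Lsm14b to Lsm14a, −0.21 to 0.019 for Cnot6l to Cnot6, −0.025 to 0.14 for Cnot7 to Cnot8 and −0.23 to 0.25 for Cpeb1 to Cpeb4.

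Deviations of samples with the same replicate number had correlations of 0.22, 0.01 and −0.03 over tested genes. Pairs with different numbers ranged from −0.34 to 0.32. These correlations cannot decide whether samples of the same number share more than the number. With a replicate block, 0 genes and 0 members were called, 432 genes had an unadjusted p under 0.05, and the ratio differences were as without it, where the smallest possible sign-flip p is 0.25. Pabpc1l is limited by its 1 to 17 reads per library.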
